A study of Homo sapiens with 16 samples.

Results

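The axon guidance ligands and receptors comprised 71 of the 27037 genes in the count table, picked by symbol alone: 20 semaphorins (7 of class 3 and 13 of classes 4 to 7), 2 neuropilins, 9 plexins, 5 ephrin-A and 3 ephrin-B ligands, 9 EphA and 5 EphB receptors, 3 slits, 4 robos, 4 netrins, 2 netrin-Gs, DCC and NEO1, and 3 UNC5 receptors. Of these, 60 held enough reads to be tested among 15415 genes, namely 34 of 37 ligands and 26 of 34 receptors. The 11 genes too low to test were DCC, NTN1, NTN5, SEMA5A, ROBO4, EPHA1, EPHA3, EPHA4, EPHA7, EPHB1 and EPHB6.

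Axon guidance genes encode secreted or membrane-bound cues and the surface receptors by which a growth cone reads them. Slits act through robos, netrins attract through DCC and neogenin and repel through UNC5 receptors, class 3 semaphorins are sensed by neuropilins paired with plexins, and ephrins signal on contact with Eph receptor kinases, often in both directions. In the sympathoadrenal lineage, from which neuroblastoma arises, these cues steer migrating neural crest cells and pattern sympathetic axons.

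RNA sequencing was performed on SK-N-BE(2)C, an established neuroblastoma line with MYCN amplification and adrenergic identity, in 4 groups of 4 samples. Cells received the DMSO vehicle, 10 µM all-trans retinoic acid (RA), a differentiating agent, 1 µM palbociclib (PB), which blocks CDK4 and CDK6 and so entry into the cell cycle, or both agents (PB+RA), each for 5 days. Replicates were passages of this 1 line plated as separate experiments. No other line or tissue was analysed here.

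Libraries held 19.5 to 31.6 M counts, and where a library shows 0 counts of a gene, a level of up to 0.0949 to 0.154 CPM (counts scaled to a library total of 1000000) cannot be told from 0, for counting error only. Adrenergic identity genes were present throughout, with the 9 markers summing to 4346 to 4985 CPM in DMSO, 4186 to 5522 in RA, 8414 to 9372 in PB and 6840 to 10490 in PB+RA, while the Schwann marker SOX10 and the endothelial marker PECAM1 never exceeded 1 count. The 6 endothelial markers summed to at most 3.36 CPM in any library. The 4 leukocyte markers summed to 19.0 to 24.9 CPM in DMSO and 43.4 to 104 CPM in RA, with 11.6 to 28.4 CPM in PB and 39.4 to 129.6 CPM in PB+RA, carried by CD14, while the defining marker PTPRC averaged at most 0.132 CPM in any group. The 9 markers of the mesenchymal state in the table summed to 1161 to 1428 CPM in DMSO and 1922 to 2355 CPM in RA, against 1005 to 1149 CPM in PB and 1196 to 1624 CPM in PB+RA. The 6 proliferation markers all fell with PB and with PB+RA, summing to 1650 to 1734 CPM in DMSO, 624 to 781 CPM in PB and 239 to 371 CPM in PB+RA, against 1312 to 1403 CPM in RA. The part of these shifts in the results below was not tested. Replicates 1 and 2 stood apart from replicates 3 and 4. Within a group, chi-square per degree of freedom between libraries was 3.11 to 9.68 inside these pairs and 12.5 to 31.3 across them. Values from each pair alone are therefore given beside the counts.

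A gene was called raised or lowered where the quasi-likelihood test of edgeR gave an adjusted p below 0.05 (Benjamini-Hochberg, over all 15415 genes) and the absolute log2 fold change was above 0.5. Log2 fold changes and interactions are given ± their standard error (SE), and other values ± SD.

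To ask which guidance systems the untreated line expresses, levels were compared per exon length as RPKM (CPM per kilobase of exon). Receptors outweighed ligands: the receptor genes summed to 263 ± 13.7 RPKM in DMSO and the ligand genes to 115 ± 4.40 RPKM (mean ± SD, n = 4). UNC5B, a repulsive netrin receptor, was the highest member at 68.2 ± 6.33 RPKM, followed by the semaphorin receptor PLXNB2 at 37.2 ± 1.08 RPKM and the secreted ligand SLIT3 at 30.7 ± 1.89 RPKM. PLXNA1 stood at 24.1 ± 3.57, UNC5C at 21.95 ± 1.42 and NRP1 at 18.6 ± 1.44 RPKM, and PLXNA1 and UNC5C differed by less than the SD of PLXNA1. At the other end, DCC, the attractive netrin receptor, and NTN1, the founding netrin, were scarcely detected. DCC had 61 counts and NTN1 107 counts in all 16 libraries together, with no sample of DCC above 9 counts and none of NTN1 above 15. EPHA3, a receptor tyrosine kinase for ephrin-A ligands, had 3 counts in all.

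Summed levels were then set side by side for each family across the 4 groups, as in the plot of family levels. Plexins summed to 111 ± 5.20 RPKM in DMSO, 133 ± 8.71 with PB, 134 ± 2.55 with RA and 172 ± 11.5 with both, and the PB+RA samples lay above all others. EphB receptors were the only 1 of the 14 families in which no pair of groups overlapped, at 8.56 to 9.73 RPKM in DMSO, 18.7 to 22.1 in RA, 6.33 to 7.29 in PB and 12.3 to 16.6 in PB+RA. UNC5 receptors lay lower in RA (86.4 ± 6.87 RPKM) and higher in PB+RA (138 ± 12.3 RPKM) than in DMSO (103 ± 6.86 RPKM). Slits lay at 29.5 to 34.1 RPKM in DMSO and 30.98 to 37.7 in RA, against 20.9 to 24.3 in PB and 20.2 to 27.8 in PB+RA. Sums are led by their most abundant gene, SLIT3 among slits and UNC5B among UNC5 receptors, and are given as a description.

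**Figure D1:**
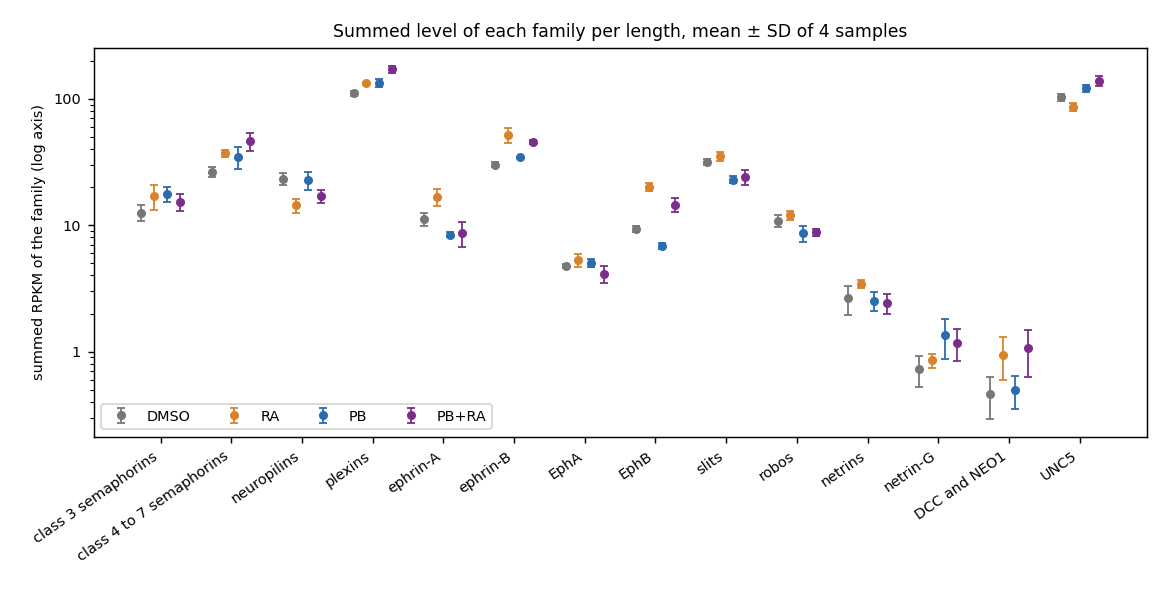
Summed RPKM of each family on a log axis, with points for the mean and bars for the SD of 4 samples in DMSO, RA, PB and PB+RA. EphB receptors sit at 9.33 RPKM in DMSO, 6.85 with PB, 20.2 with RA and 14.6 with both, and plexins are highest in PB+RA at 172 RPKM.

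Each agent was compared with DMSO to ask which guidance genes it moved. PB raised 18 and lowered 9 of the 60 tested members, whereas it raised 16.9% and lowered 11.3% of all genes tested (28.2% in either direction). With a correction for GC content and exon length these counts became 14 and 13, beside 2213 and 2127 of all 15415 genes in the same fit. RA raised 23 members and lowered 3, against 10.8% and 2.54% of all genes (13.3% in either direction), with 18 and 5 after the same correction (1329 and 788 of all genes). PB+RA raised 26 and lowered 11, against 24.0% and 17.9% of all genes (41.9% in either direction), with 21 and 14 after correction (3220 and 3352 of all genes). The median log2 fold change over the tested members was 0.15 for PB, 0.45 for RA and 0.41 for PB+RA, beside 0.03, 0.01 and 0.04 over all genes. Among the 34 ligands RA raised 15 and lowered 0, while its 3 falls, NRP1, NRP2 and EPHA5, were all receptors. At an unadjusted p below 0.05 by edgeR, 2 ligands (SEMA3E and SLIT3) lay below DMSO with RA, and DESeq2 and limma-voom each called 0. With the replicate number as a block 4 members fell with RA, beside 509 of all genes, and the added fall was that of a ligand, NTNG1. In replicates 1 and 2 alone, PB raised 17 members and lowered 8, RA raised 18 and lowered 3, and PB+RA raised 26 and lowered 11. Of the 15515 genes tested there, PB raised 2525 and lowered 1872, RA 1298 and 308, and PB+RA 3588 and 2832. In replicates 3 and 4 alone, PB raised 17 and lowered 11, RA raised 28 and lowered 4, and PB+RA raised 24 and lowered 12. Of the 15414 genes tested there, PB raised 2120 and lowered 1925, RA 1682 and 689, and PB+RA 3405 and 2892. These 3 comparisons share the DMSO samples. In bulk RNA a change in the share of cells that express a gene and a change in RNA per cell cannot be told apart.

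**Figure D2:**
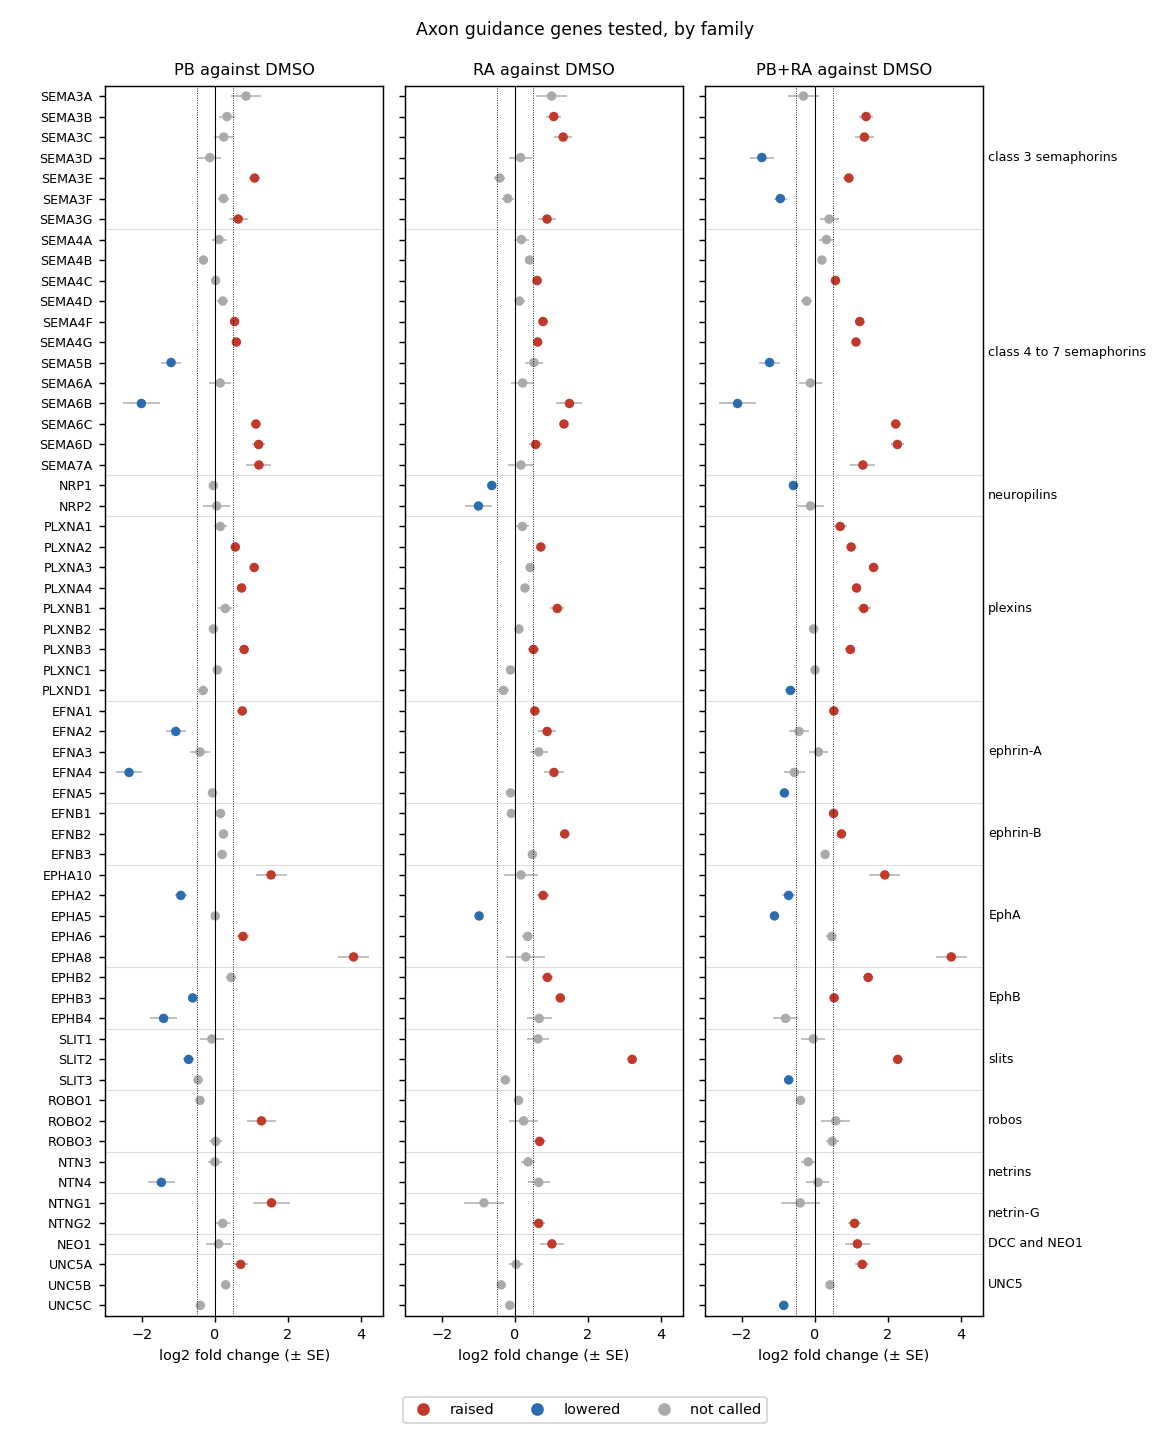
Log2 fold change (points) with its SE (bars) against DMSO for the 60 tested members, grouped by family, in panels for PB, RA and PB+RA; red points were raised, blue lowered and grey not called, and dotted lines mark the log2 minimum of 0.5. SLIT2 stands out in the RA panel at 3.21 and EPHA8 in the PB panel at 3.80.

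Among slits, RA raised SLIT2 and PB lowered it. SLIT2 (GRCh37 chromosome 4, 20253528 to 20622184, plus strand) encodes a secreted repellent sensed by ROBO1 and ROBO2. Its level was 12.4, 9.50, 10.1 and 10.9 CPM in the DMSO replicates and 103, 84.1, 97.1 and 116 CPM in RA. With PB it was 6.31, 7.26, 5.32 and 7.15 CPM, and with PB+RA 42.98, 47.9, 53.3 and 67.7 CPM. No values overlapped between any pair of groups, PB lying lowest and RA highest. The log2 fold change was 3.21 ± 0.14 (adjusted p = 3.36e-10) for RA, -0.72 ± 0.15 (adjusted p = 0.000774) for PB and 2.27 ± 0.14 (adjusted p = 6.01e-10) for PB+RA. PB+RA also lay above PB, by 2.99 ± 0.15 (adjusted p = 1.42e-09), and below RA, with a log2 fold change of -0.94 ± 0.13 (adjusted p = 1.36e-05). The interaction was -0.22 ± 0.20 (adjusted p = 0.64), so a departure from additivity on the log2 scale was not called.

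SLIT3 (chromosome 5, 168088745 to 168728143, minus strand), the abundant slit, was lowered in the combination. It fell with PB+RA (-0.71 ± 0.081, adjusted p = 7.73e-07), from 443, 407, 430.0 and 471 CPM in DMSO to 276, 225, 279.8 and 308 CPM in PB+RA without overlap. With PB its log2 fold change of -0.46 ± 0.080 (adjusted p = 0.000133) passed the p threshold and missed the fold minimum, and with RA it was -0.26 ± 0.080 (adjusted p = 0.0189). SLIT1 held only 234 counts in all 16 libraries and was not called in any comparison, although RA gave 0.62 (adjusted p = 0.0471) with the replicate number as a block, over a range of adjusted p from 0.0471 to 0.416 across the 29 alternatives.

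Among robo receptors PB raised ROBO2 and RA raised ROBO3, while ROBO1 was not called. ROBO1, the main slit receptor here at 10.3 ± 1.10 RPKM in DMSO, lay at 115, 130.2, 101 and 109 CPM in DMSO, 117, 138, 114 and 123 in RA, 95.8, 93.4, 72.01 and 81.7 in PB and 85.2, 95.03, 82.2 and 91.98 in PB+RA. All 8 samples given PB lay below all 8 without it, and the log2 fold changes of -0.41 ± 0.091 (adjusted p = 0.00115) for PB and -0.39 ± 0.091 (adjusted p = 0.00118) for PB+RA passed the p threshold without reaching the fold minimum. ROBO2 was raised by PB, from 4.61, 5.42, 2.02 and 2.75 CPM in DMSO to 13.2, 13.7, 3.99 and 4.80 CPM in PB, a log2 fold change of 1.27 ± 0.39 (adjusted p = 0.0127). The PB values of replicates 3 and 4 overlapped the DMSO values of replicates 1 and 2, and the call was lost without PB replicate 1 or PB replicate 2 (adjusted p = 0.0548 and 0.0585). For each replicate number the PB sample lay above DMSO. The PB call held with the replicate block, and over the alternatives its adjusted p ran from 7.96e-06 to 0.0585. With the replicate block ROBO2 was also called for PB+RA, at 0.60 (adjusted p = 0.00966), where the alternatives ran from 0.00319 to 0.459. ROBO3, best known for letting commissural axons cross the midline, was raised by RA (0.68 ± 0.18, adjusted p = 0.00775), from 1.99, 2.61, 2.31 and 2.44 CPM to 2.54, 4.21, 4.33 and 3.96 CPM. Its RA replicate 1 fell inside the DMSO range.

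In the netrin system RA and PB+RA raised the receptor NEO1. NEO1 (chromosome 15, 73344051 to 73597546, plus strand) encodes neogenin, a relative of DCC that binds netrins and repulsive guidance molecules. It measured 2.48, 2.73, 4.40 and 5.19 CPM in DMSO, 5.28, 5.05, 9.12 and 10.7 in RA, 3.17, 2.90, 5.09 and 4.71 in PB and 6.88, 4.74, 9.66 and 12.8 in PB+RA. Replicates 3 and 4 lay above replicates 1 and 2 in every group, so that the groups overlapped while for each replicate number the sample with RA lay above DMSO. RA raised NEO1 (1.02 ± 0.34, adjusted p = 0.0279), as did PB+RA (1.17 ± 0.34, adjusted p = 0.00612), and PB gave 0.10 ± 0.35 (adjusted p = 0.823). The RA call was lost without DMSO replicate 1 or 2 or RA replicate 3 or 4 (adjusted p from 0.0799 to 0.105), whereas that of PB+RA held in each such fit. With the replicate block the RA call held, and over the alternatives its adjusted p ran from 4.51e-07 to 0.105.

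Among UNC5 receptors, which mediate repulsion from netrins, PB+RA raised UNC5A and lowered UNC5C. UNC5A (chromosome 5, 176237520 to 176307899, plus strand) was raised by PB (0.71 ± 0.19, adjusted p = 0.00554) and PB+RA (1.30 ± 0.19, adjusted p = 2.26e-05), from 62.8, 50.3, 55.3 and 55.7 CPM in DMSO to 98.6, 73.3, 97.7 and 95.7 in PB and 197, 157, 109 and 98.4 in PB+RA. UNC5C (chromosome 4, 96083655 to 96470357, minus strand) was lowered by PB+RA (-0.85 ± 0.083, adjusted p = 1.37e-07), lying at 229, 252, 217 and 240.0 CPM in DMSO and 118, 120.4, 135 and 158 CPM in PB+RA without overlap. The log2 fold changes of UNC5C were -0.40 for PB and -0.14 for RA, neither called. UNC5B, the most abundant member, lay at 518, 414, 457 and 476 CPM in DMSO and 423, 295, 372 and 358 CPM in RA, and at 592, 524, 578 and 594 and 679, 552, 656 and 656 CPM in PB and PB+RA. It was not called against DMSO in any group, its log2 fold changes being 0.30, -0.37 and 0.42 for PB, RA and PB+RA, but was higher in PB+RA than in RA by 0.79 ± 0.096 (adjusted p = 3.44e-06). In the netrins themselves few reads were found. NTN3 was the highest, at 2.42 ± 0.683 RPKM in DMSO, and was lower in PB+RA than in RA (-0.54 ± 0.19, adjusted p = 0.0222), a call lost without RA replicate 1 or PB+RA replicate 2 or 4 (adjusted p from 0.0506 to 0.0684). NTN4, a laminin-like netrin, was lowered by PB (-1.46 ± 0.38, adjusted p = 0.00348) from 0.851, 0.367, 0.759 and 0.813 CPM to 0.429, 0.0968, 0.238 and 0.226 CPM. PB replicate 2 was near the level that 3 counts would give, and with replicates 1 and 2 alone the call was lost (adjusted p = 0.145).

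The netrin-Gs are membrane-anchored relatives that bind synaptic NGL proteins and not DCC. NTNG1 was raised by PB, with 2.02, 1.06, 4.52 and 4.49 CPM in DMSO and 5.71, 3.87, 13.6 and 12.4 CPM in PB (1.55 ± 0.51, adjusted p = 0.0176). Its levels in replicates 3 and 4 exceeded those in replicates 1 and 2 in all 4 groups, so the groups overlapped, and leaving out DMSO replicate 1 or 2 or PB replicate 3 or 4 ended the call (adjusted p from 0.0516 to 0.0645). The PB call held with the replicate block, and over the alternatives its adjusted p ran from 2.89e-10 to 0.0645. With RA added to PB, NTNG1 fell back to 1.59, 0.974, 3.52 and 3.38 CPM, a log2 fold change against PB of -1.95 ± 0.52 (adjusted p = 0.00899). With the replicate block RA alone also lowered it, at -0.80 (adjusted p = 9.5e-05), where the fit without the block gave -0.85 ± 0.55 (adjusted p = 0.249) and the alternatives ran from 9.45e-06 to 0.47. NTNG2 was raised by RA (0.65 ± 0.19, adjusted p = 0.0122) and PB+RA (1.09 ± 0.18, adjusted p = 6.64e-05), the RA fold slipping under the minimum without DMSO replicate 1 (log2 fold change 0.49).

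The promoters of SLIT2, NEO1 and EPHA8 are shown because these genes held the largest RA rise, the rise of the neogenin receptor and the largest PB rise among the members. The 250 bases before the RefSeq transcription start (build GRCh38.p14) are printed from 5′ to 3′ on the gene's strand, in lower case with matches to 4 motifs in capitals: AGGTCA, the nuclear receptor half-site; CACGTG, the E-box of MYC proteins; GGGCGG, the GC box; and TTTCCCGC, the E2F motif, each searched on both strands with overlapping matches allowed.
SLIT2, chr4:20251655-20251904, plus strand: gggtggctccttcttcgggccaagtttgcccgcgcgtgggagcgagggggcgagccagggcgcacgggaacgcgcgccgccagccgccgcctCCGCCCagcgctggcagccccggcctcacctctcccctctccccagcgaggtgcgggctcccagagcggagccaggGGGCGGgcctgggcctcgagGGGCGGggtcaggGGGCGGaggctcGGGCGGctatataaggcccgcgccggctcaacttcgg
NEO1, chr15:73051652-73051901, plus strand: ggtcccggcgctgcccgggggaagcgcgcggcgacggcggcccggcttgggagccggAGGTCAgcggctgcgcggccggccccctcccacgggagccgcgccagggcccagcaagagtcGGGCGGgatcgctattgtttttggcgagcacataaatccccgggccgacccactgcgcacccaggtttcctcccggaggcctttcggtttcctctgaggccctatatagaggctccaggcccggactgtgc
EPHA8, chr1:22563239-22563488, plus strand: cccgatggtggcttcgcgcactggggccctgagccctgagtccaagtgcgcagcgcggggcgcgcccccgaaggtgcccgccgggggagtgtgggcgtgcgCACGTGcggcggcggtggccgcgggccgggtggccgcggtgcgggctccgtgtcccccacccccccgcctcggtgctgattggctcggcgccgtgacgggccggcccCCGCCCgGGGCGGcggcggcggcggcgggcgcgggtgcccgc
SLIT2 held 5 GC boxes, NEO1 held 1 nuclear receptor half-site and 1 GC box, and EPHA8 held 1 E-box and 2 GC boxes. Over windows of 300 bases that reach 50 bases past the start, 61 of the 71 members matched RefSeq symbols, with 95 promoters. AGGTCA was present in 10.5% of these and in 13.8% of all 35116 promoters, CACGTG in 4.21% and 7.26%, GGGCGG in 72.6% and 45.0%, and TTTCCCGC in 0 and 1.63%. Median GC content was 65.7% in the members' promoters and 58.7% in all. A match is a run of letters and not a measured site.

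Secreted class 3 semaphorins, repellents sensed by neuropilins and A-type plexins, split by agent. PB raised SEMA3E and SEMA3G, RA raised SEMA3B, SEMA3C and SEMA3G, and PB+RA raised SEMA3B, SEMA3C and SEMA3E while lowering SEMA3D and SEMA3F. SEMA3E, which binds PLXND1 without a neuropilin, lay at 22.3, 25.8, 25.2 and 25.9 CPM in DMSO, 16.3, 20.4, 17.7 and 20.5 in RA, 61.4, 65.1, 40.7 and 43.5 in PB and 46.8, 59.96, 38.8 and 47.6 in PB+RA. Samples with PB lay above samples without it, with log2 fold changes of 1.09 ± 0.15 (adjusted p = 1.54e-05) for PB and 0.93 ± 0.15 (adjusted p = 4.18e-05) for PB+RA. SEMA3C, a guide of neural crest and sympathetic axons, followed RA instead, at 7.73, 10.8, 12.2 and 14.9 CPM in DMSO and 19.4, 20.6, 36.5 and 38.7 CPM in RA (1.323 ± 0.25, adjusted p = 0.000962). Its PB+RA values of 19.5, 32.1, 30.6 and 37.7 CPM were likewise above DMSO (1.36 ± 0.25, adjusted p = 0.000209), and PB gave 0.24 ± 0.26 (adjusted p = 0.45). SEMA3B was raised by RA (1.06 ± 0.20, adjusted p = 0.000748) and PB+RA (1.40 ± 0.20, adjusted p = 1.08e-05) at low levels, of 1.70 ± 0.474 CPM in DMSO and 4.59 ± 0.793 CPM in PB+RA. The PB call of SEMA3G (0.64 ± 0.26, adjusted p = 0.0474) was near the threshold and was lost without any of 13 libraries, all but PB+RA replicates 1 and 2 and DMSO replicate 4 (adjusted p from 0.051 to 0.128).

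SEMA3D and SEMA3F, repellents that act through neuropilins, were called lowered in PB+RA and under neither agent alone. SEMA3D measured 23.4, 47.4, 28.1 and 30.4 CPM in DMSO, 29, 51.4, 33.6 and 30.7 in RA, 33.6, 44.5, 17.3 and 21.9 in PB and 8.79, 19.1, 8.93 and 11.6 in PB+RA. Replicate 2 was the highest in every group, and all PB+RA values lay below DMSO and RA (-1.45 ± 0.33, adjusted p = 0.00139 against DMSO, -1.31 ± 0.33, adjusted p = 0.00674 against PB, -1.60 ± 0.33, adjusted p = 0.00089 against RA). With replicates 1 and 2 alone these were not called (adjusted p = 0.106, 0.136 and 0.0897). SEMA3F measured 8.05, 7.58, 9.61 and 8.79 CPM in DMSO, 6.06, 6.07, 9.65 and 8.15 in RA, 9.48, 10.3, 10.2 and 10.1 in PB and 3.34, 4.07, 4.81 and 5.94 in PB+RA. The PB+RA samples lay below every sample of the other groups, at -0.94 ± 0.17 (adjusted p = 0.000117) against DMSO, while PB alone gave 0.23 and RA alone -0.19.

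SEMA3A, the prototype collapsing factor of sensory and sympathetic growth cones, varied widely between replicates. Its values were 9.72, 9.25, 17.6 and 22.4 CPM in DMSO, 12.7, 19.6, 48.5 and 38.6 in RA, 20.98, 17.1, 29.7 and 38.6 in PB and 8.15, 9.65, 13.2 and 17.8 in PB+RA. Replicates 3 and 4 exceeded replicates 1 and 2 in each group, and within every replicate number both single agents lay above DMSO. Without the block neither rise was called (0.85 ± 0.42, adjusted p = 0.0984 for PB, 1.01 ± 0.42, adjusted p = 0.0734 for RA), and with it both were, at 0.88 (adjusted p = 0.000793) for PB and 0.97 (adjusted p = 0.000583) for RA. Over all alternatives the adjusted p ran from 0.000793 to 0.287 for PB and from 0.000583 to 0.268 for RA. The combination lay below each single agent, at -1.16 ± 0.42 (adjusted p = 0.043) against PB and -1.316 ± 0.42 (adjusted p = 0.0164) against RA. The latter call was lost without RA replicate 3 (adjusted p = 0.0721) or PB+RA replicate 1 (adjusted p = 0.051). The former was lost without DMSO replicate 3, RA replicate 4, PB replicate 3 or 4 or PB+RA replicate 1, 2 or 3 (adjusted p from 0.0517 to 0.129). Both calls held with the replicate block. Across the alternatives their adjusted p ran from 0.0002 to 0.129 against PB and from 5.9e-05 to 0.0721 against RA.

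Of the 12 membrane-bound semaphorins of classes 4 to 7 tested, to be read beside the shares of all genes (16.9% raised and 11.3% lowered by PB, 10.8% and 2.54% by RA, 24.0% and 17.9% by PB+RA), PB raised 5 and lowered 2, RA raised 6 and lowered 0 (also 0 at an unadjusted p below 0.05 and by DESeq2 and limma-voom), and PB+RA raised 6 and lowered 2. SEMA6C and SEMA6D, transmembrane ligands of A-type plexins, had the largest rises of the family with PB+RA. SEMA6C (chromosome 1, 151104161 to 151119107, minus strand) stood at 3.90, 3.14, 4.14 and 4.41 CPM in DMSO, 7.58, 9.42, 10.6 and 12.3 in RA, 8.71, 8.13, 9.22 and 7.92 in PB and 19.1, 19.1, 17.5 and 18.3 in PB+RA. Each agent alone raised it (1.12 ± 0.13, adjusted p = 2.86e-06 for PB, 1.34 ± 0.13, adjusted p = 1.95e-06 for RA), and the combination raised it further (2.22 ± 0.13, adjusted p = 3.6e-10), above either agent alone (1.09 ± 0.13, adjusted p = 5.99e-06 against PB, 0.87 ± 0.13, adjusted p = 2.02e-05 against RA). SEMA6D (chromosome 15, 47476298 to 48066425, plus strand) stood at 5.35, 4.16, 5.47 and 5.69 CPM in DMSO, 7.62, 6.07, 7.99 and 9.28 in RA, 16.5, 12, 9.08 and 9.91 in PB and 29.5, 24.97, 23.5 and 23.3 in PB+RA. No PB+RA value of either gene overlapped another group. SEMA6D gave 1.20 ± 0.17 (adjusted p = 2.01e-05) for PB, 2.26 ± 0.17 (adjusted p = 6.36e-09) for PB+RA and 0.57 ± 0.17 (adjusted p = 0.0174) for RA, and the RA call was lost without DMSO replicate 2 or RA replicate 4 (adjusted p = 0.0613 and 0.075). For neither gene was the interaction called (SEMA6C -0.25 ± 0.18, adjusted p = 0.533; SEMA6D 0.50 ± 0.24, adjusted p = 0.286).

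SEMA7A, a membrane-anchored semaphorin that promotes axon growth through integrins, was raised wherever PB was given. It lay at 18.9, 23.4, 12.5 and 15.6 CPM in DMSO and 49.04, 57.5, 28.8 and 26.5 in PB (1.20 ± 0.34, adjusted p = 0.00785), and at 21.99, 27.7, 14.2 and 15.4 in RA (0.17, not called) and 57.3, 63.99, 25.6 and 31.2 in PB+RA (1.318 ± 0.34, adjusted p = 0.00324). Replicates 1 and 2 were higher than replicates 3 and 4 in every group. SEMA4C, a ligand of B-type plexins and the highest of the 13 per length, rose with RA (0.61 ± 0.070, adjusted p = 8.23e-06) and PB+RA (0.57 ± 0.070, adjusted p = 2.01e-06), from 54.4, 48.7, 49.4 and 53.8 CPM in DMSO to 80.7, 77.9, 76.4 and 81.7 CPM in RA. After the GC and length correction both folds were under the minimum (log2 0.45 and 0.33), as was that of PB+RA without PB+RA replicate 1 (0.47). SEMA4F rose in all 3 comparisons, by 0.54, 0.77 and 1.23 for PB, RA and PB+RA, and the PB rise slipped to between 0.42 and 0.50 without DMSO replicate 2 or 4 or PB replicate 1 or 3. SEMA4G was called raised in the same 3 comparisons (0.59, 0.62 and 1.13), but 1215 bases of its exons overlap those of MRPL43 on the opposite strand, which had 62.0 CPM against 14.4 CPM for SEMA4G, and since the strand setting of the counts is not given its counts are uncertain. SEMA4A and SEMA6A were not called in any comparison, and SEMA4B was called for PB+RA against PB (0.51 ± 0.081, adjusted p = 0.000124), at 0.46 to 0.50 without PB replicate 4 or PB+RA replicate 1 or 2. Without PB+RA replicate 1, SEMA4G and SEMA4C likewise fell under the minimum against PB (0.43 and 0.48).

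SEMA5B and SEMA6B fell with PB. SEMA5B lay at 4.18, 6.97, 3.32 and 3.87 CPM in DMSO and 1.54, 2.85, 1.62 and 1.95 CPM in PB (-1.20 ± 0.28, adjusted p = 0.00176), and in PB+RA at 2.07, 2.39, 2.30 and 1.08 CPM (-1.24 ± 0.28, adjusted p = 0.000943). RA alone gave 0.52 ± 0.26 (adjusted p = 0.126), and with the replicate block 0.55 (adjusted p = 0.0106), over a range of 0.00234 to 0.794 in adjusted p across the alternatives. SEMA6B responded in opposite directions to the agents, with 0.669 ± 0.274 CPM in DMSO, 1.90 ± 0.426 with RA, 0.163 ± 0.0876 with PB and 0.157 ± 0.118 with both (mean ± SD, n = 4). RA raised it (1.495 ± 0.36, adjusted p = 0.00402) and PB (-2.01 ± 0.50, adjusted p = 0.00281) and PB+RA (-2.11 ± 0.50, adjusted p = 0.00136) lowered it without overlap, although its 16 libraries held only 286 counts together and PB+RA replicate 3 held 0.

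Plexins are the signalling receptors for semaphorins. PB raised 4 of 9 plexins, RA 3 and PB+RA 6, where the shares of all genes raised were 16.9%, 10.8% and 24.0%, and in these 3 comparisons PLXND1, which PB+RA lowered (-0.66 ± 0.15, adjusted p = 0.000811), was the only plexin called downward. All 4 A-type plexins, the signalling partners of neuropilins and receptors of class 6 semaphorins, were raised by PB+RA. PLXNA3 moved most (chromosome X, 153686621 to 153706118, plus strand), at 87.5, 74.96, 88.5 and 90.03 CPM in DMSO, 107, 108, 128 and 116 in RA, 189, 170.2, 188 and 171 in PB and 295, 245, 269 and 253 in PB+RA. None of its groups overlapped. PB raised it (1.07 ± 0.075, adjusted p = 9.8e-09) and PB+RA raised it more (1.61 ± 0.076, adjusted p = 2.19e-11), above PB by 0.54 ± 0.074 (adjusted p = 3.59e-05), which was 0.47 without PB+RA replicate 1 and 0.42 after the GC and length correction, while RA gave 0.42 ± 0.075 (adjusted p = 0.000468), below the fold minimum.

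PLXNA4, a receptor that carries SEMA3A and class 6 signals, went from 169.5, 161, 161 and 190.0 CPM in DMSO to 334, 291, 249 and 256 CPM in PB (0.73 ± 0.095, adjusted p = 7.41e-06) and 397, 361, 336 and 443 CPM in PB+RA (1.14 ± 0.095, adjusted p = 2.13e-08), with 230.2, 196, 204 and 201 CPM in RA (0.28, not called). PLXNA2 was raised by all 3 treatments, by 0.56 for PB, 0.71 for RA and 0.996 for PB+RA, and its PB fold became 0.37 after the GC and length correction. PLXNA1, the most abundant of the 4, was called against DMSO in PB+RA only (0.70 ± 0.18, adjusted p = 0.00284), with 0.39 after that correction. PLXNB1, the SEMA4D receptor, followed RA, from 37.2, 35.5, 52.2 and 45.4 CPM in DMSO to 82.6, 87.2, 114 and 100.1 CPM in RA (1.16 ± 0.19, adjusted p = 0.000289) and 108, 89.8, 139 and 104 CPM in PB+RA (1.34 ± 0.19, adjusted p = 1.58e-05). No RA or PB+RA value overlapped DMSO. PLXNB3 rose with PB (0.80 ± 0.14, adjusted p = 0.000173) and PB+RA (0.98 ± 0.14, adjusted p = 1.43e-05), and its RA call (0.51 ± 0.14, adjusted p = 0.0107) sat on the fold minimum, dropping to between 0.42 and 0.50 without any of 13 libraries, all but DMSO replicates 1 and 4 and RA replicate 1. PLXNB2, the most abundant plexin, gave -0.04, 0.11 and -0.03 for PB, RA and PB+RA. PLXNC1, whose exons overlap the more abundant CEP83 on the opposite strand (5.64 against 13.4 CPM), is uncertain and was not called.

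NRP1 and NRP2 are the ligand-binding co-receptors for class 3 semaphorins, and NRP1 also binds VEGF. NRP1 (chromosome 10, 33466420 to 33625190, minus strand) measured 236, 204, 199 and 219 CPM in DMSO, 159, 114, 129.5 and 154 in RA, 238, 208, 189.9 and 196 in PB and 151, 140.5, 144 and 148 in PB+RA. The 8 samples with RA lay below the 8 without it, a log2 fold change of -0.63 ± 0.092 (adjusted p = 8.4e-05) for RA and -0.58 ± 0.092 (adjusted p = 3.26e-05) for PB+RA, and PB gave -0.04 ± 0.092 (adjusted p = 0.712). Against PB the combination gave -0.54 ± 0.092 (adjusted p = 0.000252), or -0.46 without PB replicate 1. NRP2 measured 79.7, 83.1, 38.2 and 52.3 CPM in DMSO, 39.1, 38.6, 25.4 and 24.5 in RA, 89.2, 92.9, 37.2 and 42.8 in PB and 83.7, 77.8, 34.7 and 41.6 in PB+RA. Replicates 1 and 2 were higher than 3 and 4 throughout, and each RA sample lay below the DMSO sample of its number, while PB+RA did not share the fall (-0.11 ± 0.36, adjusted p = 0.793). RA lowered NRP2 (-0.996 ± 0.37, adjusted p = 0.0487) just inside the threshold, and the call was lost without DMSO replicate 1, 2 or 4, any RA replicate or PB+RA replicate 2 (adjusted p from 0.0524 to 0.124). That call held with the replicate block, and over the alternatives its adjusted p ran from 4.4e-08 to 0.124. With the replicate block, NRP2 was higher in PB+RA than in RA (0.82, adjusted p = 2.17e-06), where the fit without it gave 0.88 ± 0.37 (adjusted p = 0.0566) and the alternatives 3.86e-07 to 0.193.

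**Figure D3:**
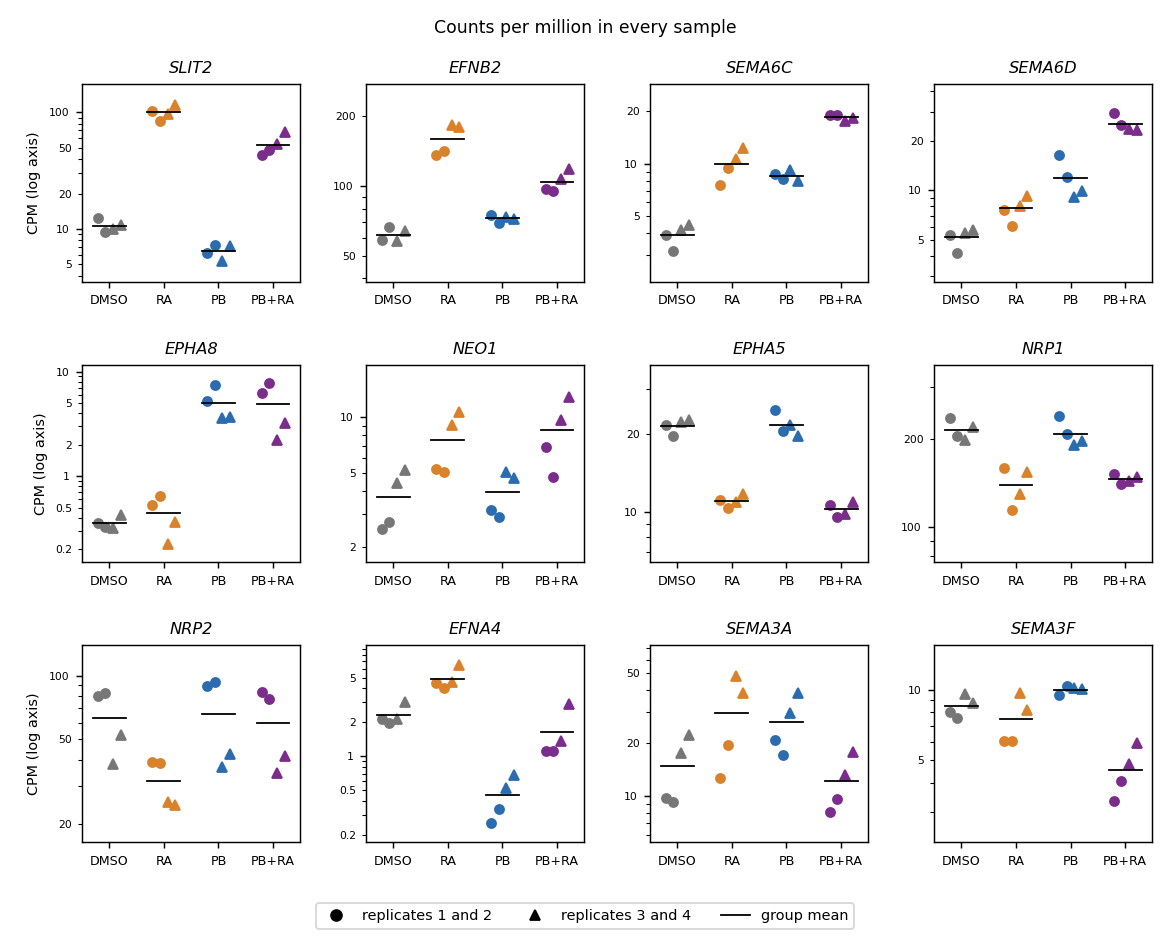
CPM (log axis) of 12 members in each of the 16 samples, by group, with circles for replicates 1 and 2, triangles for replicates 3 and 4 and a line at the group mean. SLIT2 spans 5.32 to 116 CPM, EPHA8 is higher in the groups with PB, NRP1 and EPHA5 lie lower in the groups with RA, and NEO1, NRP2 and SEMA3A part by replicate set within each group.

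Ephrins are membrane-tethered, so their signals need cell contact. Among ephrin-B ligands, which span the membrane, RA raised EFNB2 (chromosome 13, 107142093 to 107188010, minus strand). It measured 58.8, 66.3, 58.1 and 63.8 CPM in DMSO, 136, 142, 183 and 179 in RA, 75.4, 68.98, 73.8 and 72.2 in PB and 97.2, 95.2, 108 and 118 in PB+RA. The groups did not overlap, RA lying highest and PB+RA between RA and PB. The rise was 1.37 ± 0.092 (adjusted p = 3.76e-08) with RA and 0.73 ± 0.092 (adjusted p = 2.47e-06) with PB+RA, which lay below RA (log2 fold change -0.63 ± 0.091, adjusted p = 1.88e-05), and PB gave 0.23 ± 0.092 (adjusted p = 0.0402). EFNB1 was called raised in PB+RA and under neither agent alone (0.52 ± 0.11, adjusted p = 0.000724), from 34.3, 35.9, 41.6 and 43.9 CPM to 62.4, 61.5, 48.5 and 54.4 CPM, but the fold lay on the minimum. It dropped to between 0.43 and 0.49 without DMSO replicate 1 or 2, RA 1 or 2, PB 2 or 4, or PB+RA 1 or 2, and was 0.20 in replicates 3 and 4 alone. EFNB3 was not called, with 0.20, 0.48 and 0.28 for PB, RA and PB+RA.

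Of the 5 lipid-anchored ephrin-A ligands, EFNA2 and EFNA4 fell with PB and rose with RA. EFNA4 had 2.13, 1.96, 2.12 and 3.06 CPM in DMSO, 4.50, 4.04, 4.56 and 6.49 in RA, 0.257, 0.339, 0.523 and 0.679 in PB and 1.11, 1.11, 1.37 and 2.92 in PB+RA. PB lowered it (-2.35 ± 0.35, adjusted p = 2.9e-05) and RA raised it (1.07 ± 0.28, adjusted p = 0.00653), without overlap, while PB+RA overlapped DMSO through its replicate 4 (-0.55 ± 0.29, adjusted p = 0.108). With the replicate block PB+RA was called at -0.58 (adjusted p = 0.00433), with alternatives from 0.00236 to 0.343. EFNA2 lay at 7.27, 4.69, 9.61 and 9.56 CPM in DMSO, 12.4, 10.8, 15.9 and 18.8 in RA and 3.26, 2.56, 4.18 and 4.80 in PB, with -1.07 ± 0.27 (adjusted p = 0.00358) for PB and 0.88 ± 0.26 (adjusted p = 0.0139) for RA, the latter lost without RA replicate 4 (adjusted p = 0.0576). PB replicate 4 lay just above DMSO replicate 2. EFNA1 was raised by PB (0.75 ± 0.14, adjusted p = 0.000263), RA (0.55 ± 0.14, adjusted p = 0.00643) and PB+RA (0.52 ± 0.14, adjusted p = 0.00361), and the last of these slipped to 0.45 to 0.49 without any of 8 libraries, namely DMSO replicates 1 and 2, RA 1 and 2, PB 2 and 4, and PB+RA 3 and 4. Its RA fold was 0.45 to 0.50 without DMSO replicate 1 or 2 or RA replicate 4. EFNA5, a repellent in topographic maps, was 23.6, 26.1, 23.2 and 25.1 CPM in DMSO, 22.2, 24.02, 22.1 and 22.5 in RA, 23.1, 28.1, 23 and 19.1 in PB and 11.3, 15.4, 13.6 and 15.9 in PB+RA. Its PB+RA samples lay below every other sample (-0.83 ± 0.11, adjusted p = 4.77e-06), with -0.07 for PB and -0.12 for RA. EFNA3 was not called against DMSO in the fit without the block. With the block RA raised it (0.65, adjusted p = 0.0126; alternatives 0.0126 to 0.398).

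The largest single rise among the 60 belonged to an Eph receptor. EPHA8 (chromosome 1, 22889982 to 22930088, plus strand), a neuronal receptor for ephrin-A ligands, measured 0.355, 0.326, 0.316 and 0.426 CPM in DMSO and 0.532, 0.647, 0.226 and 0.360 in RA, against 5.23, 7.50, 3.56 and 3.67 in PB and 6.24, 7.79, 2.22 and 3.23 in PB+RA. Every sample given PB lay above every sample without it, by 3.80 ± 0.43 (adjusted p = 1.87e-06) for PB and 3.74 ± 0.43 (adjusted p = 1.05e-06) for PB+RA, while RA gave 0.30 ± 0.53 (adjusted p = 0.697). Even so its level stayed low per length, at 0.918 ± 0.338 RPKM in PB. EPHA10, an Eph family member that lacks kinase activity, rose likewise with PB (1.54 ± 0.43, adjusted p = 0.00625) and PB+RA (1.92 ± 0.42, adjusted p = 0.000785), from 1.10, 1.51, 0.601 and 0.697 CPM in DMSO to 3.39, 4.21, 1.996 and 1.68 in PB and 5.41, 5.05, 1.98 and 2.46 in PB+RA. Its replicates 1 and 2 were higher than 3 and 4 in all groups. EPHA6 was raised by PB (0.77 ± 0.15, adjusted p = 0.00044).

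RA and PB+RA lowered EPHA5, and PB and PB+RA lowered EPHA2. EPHA5 (chromosome 4, 66185281 to 66536213, minus strand), a neuronal receptor for EFNA5, measured 21.7, 19.7, 22.4 and 22.8 CPM in DMSO, 11.1, 10.3, 10.96 and 11.8 in RA, 24.8, 20.7, 21.8 and 19.7 in PB and 10.7, 9.61, 9.86 and 10.97 in PB+RA. An antisense gene, EPHA5-AS1, at 2.86 CPM shares 535 exon bases with it. The 8 RA-treated samples all lay below the other 8, with -0.98 ± 0.080 (adjusted p = 2.74e-07) for RA and -1.10 ± 0.081 (adjusted p = 3.93e-09) for PB+RA, and PB gave 0.01 ± 0.078 (adjusted p = 0.931). EPHA2, an Eph receptor common in epithelium and tumours, rose with RA (0.77 ± 0.16, adjusted p = 0.00171) and fell with PB (-0.93 ± 0.17, adjusted p = 0.000236) and PB+RA (-0.71 ± 0.17, adjusted p = 0.00143). It lay at 8.12, 8.68, 9.17 and 8.40 CPM in DMSO, 11.5, 17.8, 15.2 and 14.8 in RA, 3.003, 4.55, 4.51 and 5.93 in PB and 4.61, 5.71, 4.85 and 6.25 in PB+RA.

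Of the 3 EphB receptors tested, partners of ephrin-B ligands, RA raised EPHB2 and EPHB3. EPHB2 measured 19.8, 20.1, 19.2 and 21.02 CPM in DMSO, 43.5, 46.2, 31.4 and 28.02 in RA, 27.03, 26.2, 28.2 and 27.3 in PB and 68.4, 59.8, 48.4 and 48.2 in PB+RA. RA raised it (0.89 ± 0.14, adjusted p = 0.000219), PB+RA raised it most (1.46 ± 0.14, adjusted p = 1.97e-07), and PB gave 0.44 ± 0.15 (adjusted p = 0.0167), under the fold minimum. The excess of PB+RA over RA (0.57 ± 0.14, adjusted p = 0.00266) slipped to 0.47 without RA replicate 4 and 0.44 without PB+RA replicate 1. EPHB3 measured 30.9, 31.1, 22.7 and 27.4 CPM in DMSO, 62.2, 63.5, 65.5 and 75.8 in RA, 20.2, 21.2, 15.02 and 17.02 in PB and 47.8, 43.9, 34.2 and 38.9 in PB+RA, with no overlap between groups. It rose with RA (1.24 ± 0.12, adjusted p = 2.23e-06) and fell with PB (-0.61 ± 0.13, adjusted p = 0.000729), and the combination lay between (0.53 ± 0.12, adjusted p = 0.00122 against DMSO, 0.42 to 0.47 without DMSO replicate 3 or PB+RA replicate 1 or 2). EPHB4, the ephrin-B2 receptor of vessels, was lowered by PB (-1.41 ± 0.36, adjusted p = 0.00429) from 5.85, 7.17, 12.6 and 12.7 CPM to 1.59, 3.19, 4.33 and 5.39 CPM, and with the block RA raised it (0.67, adjusted p = 7.49e-05; alternatives 7.49e-05 to 0.342) and PB+RA lowered it (-0.77, adjusted p = 2e-05; alternatives 1.44e-07 to 0.318). Its exons overlap those of SLC12A9 by 69 bases on the opposite strand, at 8.56 against 39.7 CPM, so part of its counts is uncertain.

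PB+RA was then compared with each agent alone, to ask what the second agent adds. Adding RA to PB raised 19 members and lowered 7, against 9.02% and 7.27% of all genes (16.3% together), with 14 and 9 after the GC and length correction (1289 and 1217 of all genes). Adding PB to RA raised 13 and lowered 15, against 14.9% and 14.1% of all genes (29.0% together), with 11 and 17 after the same correction (2317 and 2109 of all genes). Both comparisons share the PB+RA samples. Of the 34 ligands, 12 rose and 5 fell when RA was added to PB, and 6 rose and 11 fell when PB was added to RA. In replicates 1 and 2 alone, 17 rose and 9 fell against PB and 15 rose and 14 fell against RA. Of the 15515 genes tested there, 1129 rose and 1053 fell against PB and 2389 rose and 2319 fell against RA. In replicates 3 and 4 alone, 20 rose and 6 fell against PB and 15 rose and 16 fell against RA. Of the 15414 genes tested there, 1578 rose and 1199 fell against PB and 2093 rose and 2006 fell against RA. Among members averaging at least 2 CPM over the 8 samples compared, the 3 largest rises against PB were SLIT2, EPHB3 (1.14 ± 0.13, adjusted p = 4.24e-06) and SEMA3C (1.12 ± 0.25, adjusted p = 0.00278), and the 3 largest falls NTNG1, SEMA3D and SEMA3F (-1.18 ± 0.17, adjusted p = 5.37e-05). Below that level, EFNA4 (1.80 ± 0.36, adjusted p = 0.00106) and NTN4 (1.55 ± 0.38, adjusted p = 0.00415) also rose against PB. Compared with RA alone, EPHA8 (3.44 ± 0.42, adjusted p = 4.24e-06), EPHA10 (1.75 ± 0.42, adjusted p = 0.00221) and SEMA6D (1.69 ± 0.17, adjusted p = 3.26e-07) rose most and SEMA5B (-1.76 ± 0.28, adjusted p = 5.22e-05), EFNA4 (-1.63 ± 0.29, adjusted p = 0.000159) and SEMA3D fell most under the same limit. SEMA6B, below that level, had the largest fall of all members against RA, at -3.61. Over the alternatives its adjusted p ran from 1.62e-11 to 0.000281. With the replicate block, NTN4 with RA (0.68, adjusted p = 0.0183) and, against PB, EFNA2 (0.64, adjusted p = 4.52e-05), EPHB4 (0.64, adjusted p = 0.00139) and ROBO2 (-0.63, adjusted p = 0.00646) were also called, as were EFNA3 (-0.56, adjusted p = 0.0235), SLIT1 (-0.67, adjusted p = 0.0307) and NTN4 (-0.58, adjusted p = 0.0343) against RA. Over the alternatives their adjusted p ran from 2.79e-05 to 0.765. The block took SEMA4G against RA to 0.50, under the fold minimum.

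The interaction asks whether the combination departs from the sum of the single-agent changes on the log2 scale. It was called below additive for 5 of the 60 members and above additive for 0, beside 3.02% and 0.415% of all genes (3.44% together). All 5 were ligands: SEMA3A (-2.17 ± 0.59, adjusted p = 0.0484), SEMA3F (-0.98 ± 0.24, adjusted p = 0.0216), EFNB2 (-0.87 ± 0.13, adjusted p = 0.00107), EFNA1 (-0.77 ± 0.20, adjusted p = 0.0297) and EFNA5 (-0.65 ± 0.15, adjusted p = 0.0207). The receptor UNC5B lay above additive at 0.496, just under the fold minimum. It was called above additive in 12 of the alternatives, over which its adjusted p ran from 1.29e-05 to 0.498. EFNB2 was called in each fit that left out a library. Of those fits, SEMA3A was called only in the ones without RA replicate 1 or DMSO replicate 4, with adjusted p from 0.0517 to 0.121 in the other 14. With the replicate block the SEMA3A call held, and over the alternatives its adjusted p ran from 0.000125 to 0.159. EFNA1 was lost without any of 11 libraries (all but DMSO replicate 4, RA replicate 1, PB replicate 4 and PB+RA replicates 3 and 4; adjusted p from 0.0536 to 0.0912). EFNA5 was lost without DMSO replicate 1 or 3, RA 3 or 4 or PB 1 or 3 (adjusted p from 0.0521 to 0.0694), and SEMA3F without DMSO replicate 1, RA 3 or 4 or PB 3 (adjusted p from 0.0552 to 0.0686). The calls of EFNA1, EFNA5 and SEMA3F also held with the replicate block. Across the alternatives the adjusted p ran from 0.00493 to 0.27 for EFNA1, 0.000746 to 0.111 for EFNA5 and 0.000269 to 0.0686 for SEMA3F.

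With the replicate number as a block, 13 members were below additive and 1 above, beside 981 and 190 of all 15415 genes in the same fit. The 8 added below were SEMA3D (-1.48, adjusted p = 0.00103), SEMA3G (-1.14, adjusted p = 0.0259), NTNG1 (-1.13, adjusted p = 0.000325), ROBO2 (-0.93, adjusted p = 0.0229), EPHA6 (-0.64, adjusted p = 0.00239), SEMA4D (-0.56, adjusted p = 0.000958), EPHA2 (-0.53, adjusted p = 0.0379) and NTN3 (-0.56, adjusted p = 0.029). NRP2 lay above (0.81, adjusted p = 0.000652). In the fit without the block the adjusted p of these 9 lay between 0.0853 and 0.505, and over the alternatives SEMA3D, the lowest in estimate, ran from 0.00103 to 0.394. At an unadjusted p below 0.05 without the block, 2 members lay above additive and 12 below, while DESeq2 called 1 above and 6 below and limma-voom 1 above and 4 below. Of all genes, DESeq2 called 103 above and 515 below and limma-voom 65 above and 459 below. Replicates 1 and 2 alone gave 5 below and 2 above, beside 459 and 58 of all 15515 genes tested there. Replicates 3 and 4 alone gave 7 below and 2 above, beside 560 and 211 of all 15414.

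**Figure D4:**
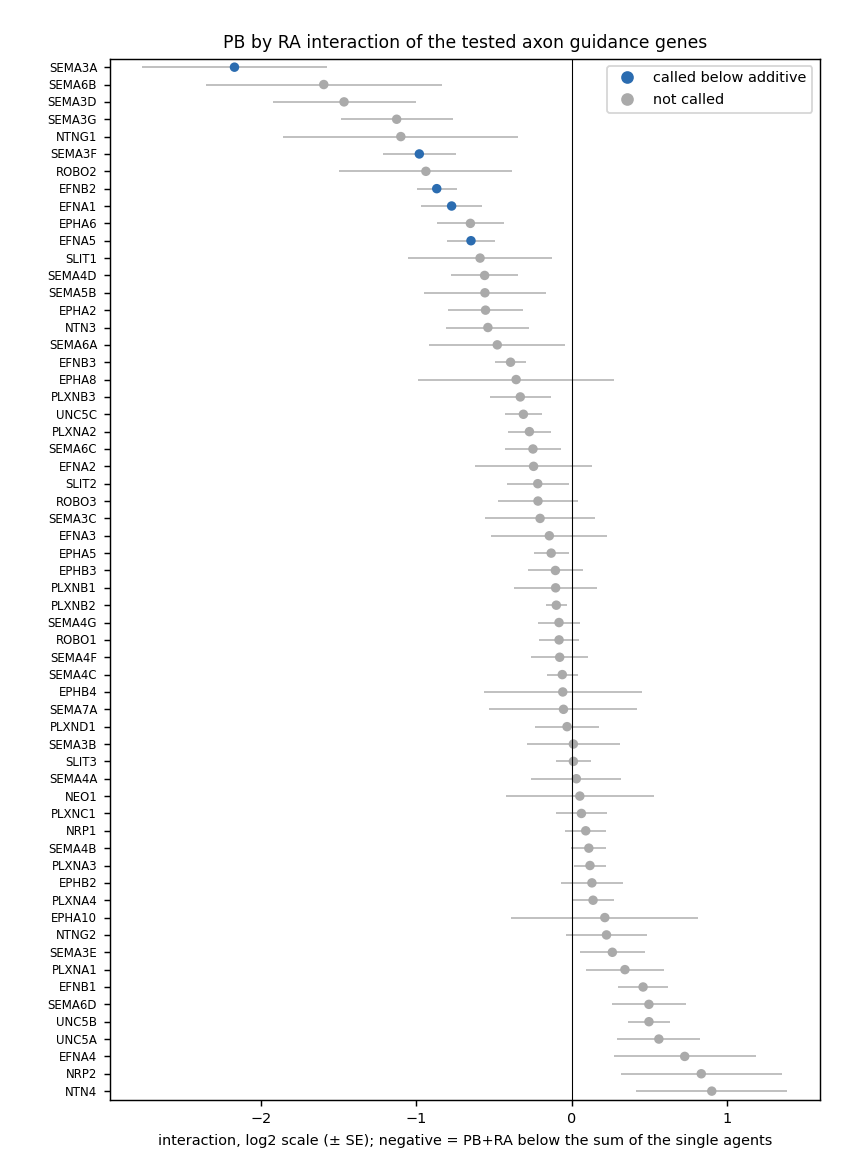
PB by RA interaction on the log2 scale (points) with its SE (bars) for the 60 tested members, sorted, where negative values mean that PB+RA lay below the sum of the single-agent changes. The 5 blue points, from SEMA3A at -2.17 to EFNA5 at -0.65, were called below additive and none was called above.

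Genes acting downstream of these receptors were followed in a list of 56 effectors, such as the collapsin response mediators and cytoskeletal kinases. Of the 54 tested, PB raised 11 and lowered 2, RA raised 11 and lowered 1, and PB+RA raised 17 and lowered 6, with median log2 fold changes of 0.12, 0.13 and 0.19, beside rises in 16.9%, 10.8% and 24.0% and falls in 11.3%, 2.54% and 17.9% of all genes. PAK3 and ABLIM3, a growth cone kinase and an actin-binding protein, rose with PB (2.33 ± 0.39, adjusted p = 8.67e-05 and 2.12 ± 0.35, adjusted p = 7.3e-05), as they did under PB+RA (2.13 ± 0.39, adjusted p = 0.000133 and 2.67 ± 0.33, adjusted p = 2.43e-06). SRGAP1 and SRGAP3, GTPase-activating proteins that bind robos, rose with PB+RA (1.36 ± 0.081, adjusted p = 3.33e-10 and 1.55 ± 0.18, adjusted p = 9.9e-07), while their relative SRGAP2, whose near-identical gene copies make its counts uncertain, fell with PB (-1.24 ± 0.12, adjusted p = 4.14e-07) and PB+RA (-2.08 ± 0.13, adjusted p = 5.31e-10). The collapsin response mediator DPYSL4 rose with PB+RA (1.52 ± 0.082, adjusted p = 1.02e-10) and DPYSL5 fell (-1.14 ± 0.20, adjusted p = 0.000144).

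A second list held 28 other cues and co-receptors, of which 22 were tested. PB raised 10 and lowered 1, RA raised 5 and lowered 2, and PB+RA raised 11 and lowered 4, with medians of 0.50, 0.38 and 0.57. Of all genes, PB raised 16.9% and lowered 11.3%, RA 10.8% and 2.54%, and PB+RA 24.0% and 17.9%. LINGO1, a neuronal co-receptor of the Nogo receptor complex, had the largest rise in the list with PB+RA (3.70 ± 0.31, adjusted p = 5.68e-08), above PB (1.53 ± 0.30, adjusted p = 0.000617) and RA (1.68 ± 0.30, adjusted p = 0.00066). BOC, a co-receptor for hedgehog that also guides commissural axons, rose with PB (1.59 ± 0.16, adjusted p = 3.78e-07) and PB+RA (1.20 ± 0.16, adjusted p = 4.59e-06). DSCAML1, an adhesion molecule of neurite spacing, fell with RA (-1.99 ± 0.29, adjusted p = 6.88e-05) and PB+RA (-1.68 ± 0.28, adjusted p = 5.62e-05).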

How the data were processed

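Poly(A) RNA of 16 SK-N-BE(2)C cultures was sequenced in paired ends from directional libraries. The authors trimmed reads with Trim Galore 0.6.4, aligned them to hg19 with STAR 2.6.1d and deposited raw read counts per gene. CPM as deposited by the authors equals each count scaled to a library total of 1000000. The annotation release and the strand column are not given in the sources used here. The authors' DESeq2 1.32.0 table of log2 fold changes and adjusted p-values was not used.

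Groups came from the sample labels. Counts were fitted with edgeR 4.0.16 (robust quasi-likelihood, TMM, filterByExpr) in R 4.3.3 over all 16 samples, with Benjamini-Hochberg adjustment over 15415 genes, a threshold of 0.05 and a log2 minimum of 0.5. The procedure was tested on simulated data. RPKM used exon lengths of GENCODE v44 on GRCh37, which also gave the coordinates, and promoters came from RefSeq. Library totals of 19.5 to 31.6 M counts set the precision of low genes. Replicates are passages of 1 line, so p-values measure the spread between such cultures.

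The labels number replicates from 1 to 4 in each group. Same-numbered samples deviated together (correlation 0.330 to 0.573 over 24 pairs, -0.492 to 0.447 over 72 pairs of unlike numbers). All negative values lay between replicates 1 and 2 on 1 side and replicates 3 and 4 on the other. Unlike numbers inside these sets correlated at 0.155 to 0.447. PB replicate 4 correlated at 0.447 with PB+RA replicate 3 and at 0.435 with PB+RA replicate 4. The numbers were taken to pair samples, although inside a set the number did not always mark the closest sample. The main fit and the fits that left out a library held no block and did not use this pairing. A fit with the replicate block is given where it changed a call and for some calls lost in those fits. Alternatives were RLE size factors, other filters, DESeq2 1.42.0, limma-voom (limma 3.58.1), only the groups compared, other fold minima, a correction for GC content and length (splines with 5 degrees of freedom, 95.2% of tested genes), each pair of replicates alone, and each library left out.

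Members were taken by symbol. Values and statistics were given first to the 5 largest rises and falls called against DMSO and the 3 largest against PB or RA, with a mean of at least 2 CPM, to members called in the interaction, and to 16 textbook members, and others were described by family. The sum of 1 marker list is not reported here. Members, lists and tests were chosen with earlier results of these data known.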

Additional observations from a re-analysis of the deposited data

Results flagged for a closer look

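Among 31 members tested for a sample far from its group in each of the 4 groups (124 groups of 4, in which chance places 5.0% past Dixon's critical value), 2 samples passed it, both replicate 4 of EFNA4. EFNA4 stood at 3.06 CPM in DMSO replicate 4, where the other 3 lay at 1.96 to 2.13 CPM. In PB+RA replicate 4 it stood at 2.92 CPM, where the other 3 lay at 1.11 to 1.37 CPM.

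The response to RA differed with and without PB for 5 ligands by edgeR's test of the interaction. The difference on the log2 scale was -2.17 for SEMA3A, -0.98 for SEMA3F, -0.87 for EFNB2, -0.77 for EFNA1 and -0.65 for EFNA5, each lower in the presence of PB. Of all genes tested, 3.02% were called below additive and 0.415% above. Of the 16 fits that left out a library, 14 lost SEMA3A, 11 EFNA1, 6 EFNA5, 4 SEMA3F and 0 EFNB2. Those fits held no replicate block, and in the fit with the block all 5 calls held.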

How the results depend on the processing

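Over 29 alternatives, no log2 fold change of a called member changed sign, and 99 of 149 calls held under every alternative other than the log2 minimum of 1. With that minimum, 9 members rose with PB, 10 with RA and 17 with PB+RA, 0 fell with RA and 4 with PB+RA, 11 rose against PB, 7 rose and 8 fell against RA, and 1 was below additive. Of all 15415 genes, 1140 rose with PB, 827 with RA and 2010 with PB+RA, while 87 fell with RA and 1110 with PB+RA. Likewise 669 rose against PB, 892 rose and 884 fell against RA, and 142 were below additive. With no fold minimum 6 members fell with RA, beside 2527 of all genes. The GC and length correction gave 5 falls with RA, 1 member above and 3 below additive, beside 788, 117 and 357 of all genes. Together with the replicate block it gave 6 falls with RA, 17 with PB+RA, and 4 members above and 9 below additive. The counts of all genes in that fit were 913, 3462, 300 and 774. The replicate block alone gave 1 member above and 13 below, beside 190 and 981 of all genes. The count above additive was also 1 with RLE size factors, with either other filter, by DESeq2, by limma-voom and with no fold minimum, and 2 in each pair of replicates alone, and with no filter 3 lay below. Of all genes, 75 lay above additive with RLE size factors, 70 with no filter and 69 with a stricter filter. DESeq2 called 103, limma-voom 65 and the fit with no fold minimum 146. Replicates 1 and 2 alone gave 58 and replicates 3 and 4 alone 211, and with no filter 322 lay below. The cause of these moves was not tested. The block changed single calls as given with them, changed no other call, and moved no other count of calls against DMSO, PB or RA by over 1.5 times.

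Leaving out 1 library at a time gave 15 to 18 rises and 9 to 10 falls with PB, 18 to 25 and 2 to 3 with RA, 23 to 27 and 11 to 13 with PB+RA, 14 to 20 and 6 to 8 against PB, 11 to 16 and 15 to 16 against RA, and 0 to 1 above and 1 to 5 below additive. Depth limited the 11 members left untested and those under about 1 CPM, such as NTN4 and SEMA6B. The correction for GC content and length together moved the balance of rises and falls by over 10 percentage points in 4 comparisons.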
